A study of Mus musculus with 48 samples.

Results

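The integrated stress response genes examined here are 10 mouse genes: Ddit3, Atf4, Atf5, Trib3, Ppp1r15a, Asns, Chac1, Sesn2, Ddit4 and Gdf15. They were chosen by name, with earlier results of these data known, as the count table entries whose Ensembl identifiers map to these symbols. The 10 genes held 11 of the table's 55487 entries, because the symbol Ddit3 maps to 2 of them. Polyadenylated RNA from kidney slices kept alive outside the body was sequenced in 48 libraries of 16 groups, with 3 numbered replicates in each group. The mice were males of C57BL/6J or DBA/2J, the 2 strains whose cross founded the BXD panel. In each strain, untreated control slices, slices given tunicamycin and slices given cyclosporin A were taken at 6 h and at 24 h. A further pair of groups in each strain was kept under normoxia, which the labels call an ischemia model, or under normoxia followed by hyperoxia, called a reperfusion model. Titles give 24 h for both oxygen arms and set them apart from the drug experiment, so these arms have no control slices of their own. Drug doses, the ages of the mice and the oxygen level of the control slices were not given in the sources used here. The labels number biological replicates but do not say that each came from a different animal, so the p-values below measure the spread between these samples.

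The integrated stress response is a shared brake on protein synthesis. The kinases PERK, GCN2, PKR and HRI sense unfolded protein in the endoplasmic reticulum, amino acid shortage, double-stranded RNA and heme shortage or mitochondrial stress, and each phosphorylates the initiation factor eIF2. General translation then falls while the messenger RNA of Atf4 is translated better through its upstream open reading frames, so the level of Atf4 RNA does not report how much ATF4 protein is made. ATF4 switches on genes of amino acid supply and, with further transcription factors, Ddit3, which encodes CHOP, a factor known for driving cell death under lasting stress. Tunicamycin blocks N-linked glycosylation and is a standard trigger of unfolded protein stress in the endoplasmic reticulum. Cyclosporin A inhibits calcineurin and is toxic to the renal tubule, and in the kidney CHOP is a commonly used sign of tubular stress.

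Promoter sequence was examined because ATF4 and CHOP targets often carry a C/EBP-ATF composite element. RefSeq windows from 250 bases before to 50 bases after each transcript start (build GRCm38.p6) were found for 10 of 10 genes, in 12 windows. The letters TGATGNAA, searched on both strands, occurred in the windows of Asns, Chac1 and Trib3, and in 3.97% of all 32851 windows. The cyclic AMP response element TGACGTCA, which CREB and ATF factors can bind, occurred only in that of Ppp1r15a among the 10 genes and in 1.79% of all windows. The letters of the endoplasmic reticulum stress element, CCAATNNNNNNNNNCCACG, occurred in none of the members' windows and in 0.119% of all windows. These are matches of letters and not measured binding sites. Each sequence below reads 5′ to 3′ on the strand of its gene, with the match in capitals. The Asns match lies inside the gene bounds given further below, and the Trib3 match lies after the RefSeq start. For these 2 genes only the surrounding 30 bases are given.
Asns, chr6:7693214-7693243, minus strand, match 23 to 16 bases before the RefSeq start: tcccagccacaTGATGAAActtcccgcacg
Trib3, chr2:152344028-152344057, minus strand, match 14 to 21 bases after the RefSeq start: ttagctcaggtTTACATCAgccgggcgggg
Chac1, chr2:119350992-119351228, plus strand, match 193 to 186 bases before the RefSeq start: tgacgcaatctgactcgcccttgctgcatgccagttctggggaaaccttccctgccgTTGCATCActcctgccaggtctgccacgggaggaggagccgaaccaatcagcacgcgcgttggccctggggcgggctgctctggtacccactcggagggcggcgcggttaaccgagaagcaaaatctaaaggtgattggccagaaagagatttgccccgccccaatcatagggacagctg
Ppp1r15a, chr7:45526269-45526518, minus strand, match 12 to 5 bases before the RefSeq start: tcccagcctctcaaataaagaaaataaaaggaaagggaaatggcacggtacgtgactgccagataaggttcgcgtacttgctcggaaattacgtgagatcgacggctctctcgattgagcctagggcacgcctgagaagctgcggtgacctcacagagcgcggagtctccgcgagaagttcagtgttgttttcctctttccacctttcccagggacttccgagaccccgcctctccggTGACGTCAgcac

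Library totals ranged from 5619309 to 25137581 counts. The lowest was replicate 2 of DBA/2J normoxia-hyperoxia and the next lowest held 12384733. Marker genes of 8 kidney cell types were detected in every group. Of the 5 urothelial markers, 1 or more of Upk1b, Upk2, Upk3a and Krt5 were at 0 in most groups, and their summed level was 0.261 to 8.10 counts per 1000000 counts of the library (CPM). Summed proximal tubule markers lay between 2998 and 7873 CPM in 6 h control libraries, between 519.6 and 2338 CPM at 24 h, between 5915 and 15372 CPM under normoxia and between 275 and 1126 CPM under normoxia-hyperoxia. Markers of other nephron segments went the other way under normoxia-hyperoxia. Distal convoluted tubule markers summed to 4430 to 7950 CPM there against 751 to 2088 CPM in 24 h controls, thick ascending limb markers to 5825 to 16636 CPM against 836 to 4325 CPM, and collecting duct markers to 678 to 1130 CPM against 135 to 246 CPM. Under normoxia these 3 lists lay at 1664 to 4187, 2209 to 14436 and 294 to 721 CPM. The mitochondrial share of counts was 8.05% to 16.3% in 6 h controls, 3.39% to 7.87% in 24 h controls, 11.8% to 25.6% under normoxia and 10.98% to 17.4% under normoxia-hyperoxia. These measures moved with culture time and oxygen arm, and several differed by strain. With C57BL/6J first, the mean mitochondrial share was 15.4% and 8.16% in 6 h controls and 23.9% and 12.3% under normoxia. Under normoxia-hyperoxia it was 14.1% and 13.7%. Mean proximal tubule sums were 695 and 1812 CPM in 24 h controls and 7850 and 14307 CPM under normoxia. Thick ascending limb sums under normoxia were 11760 and 3042 CPM. The part of these measures in the results below was not tested. In bulk RNA, fewer cells of one type and less RNA per cell cannot be told apart.

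**Figure D1:**
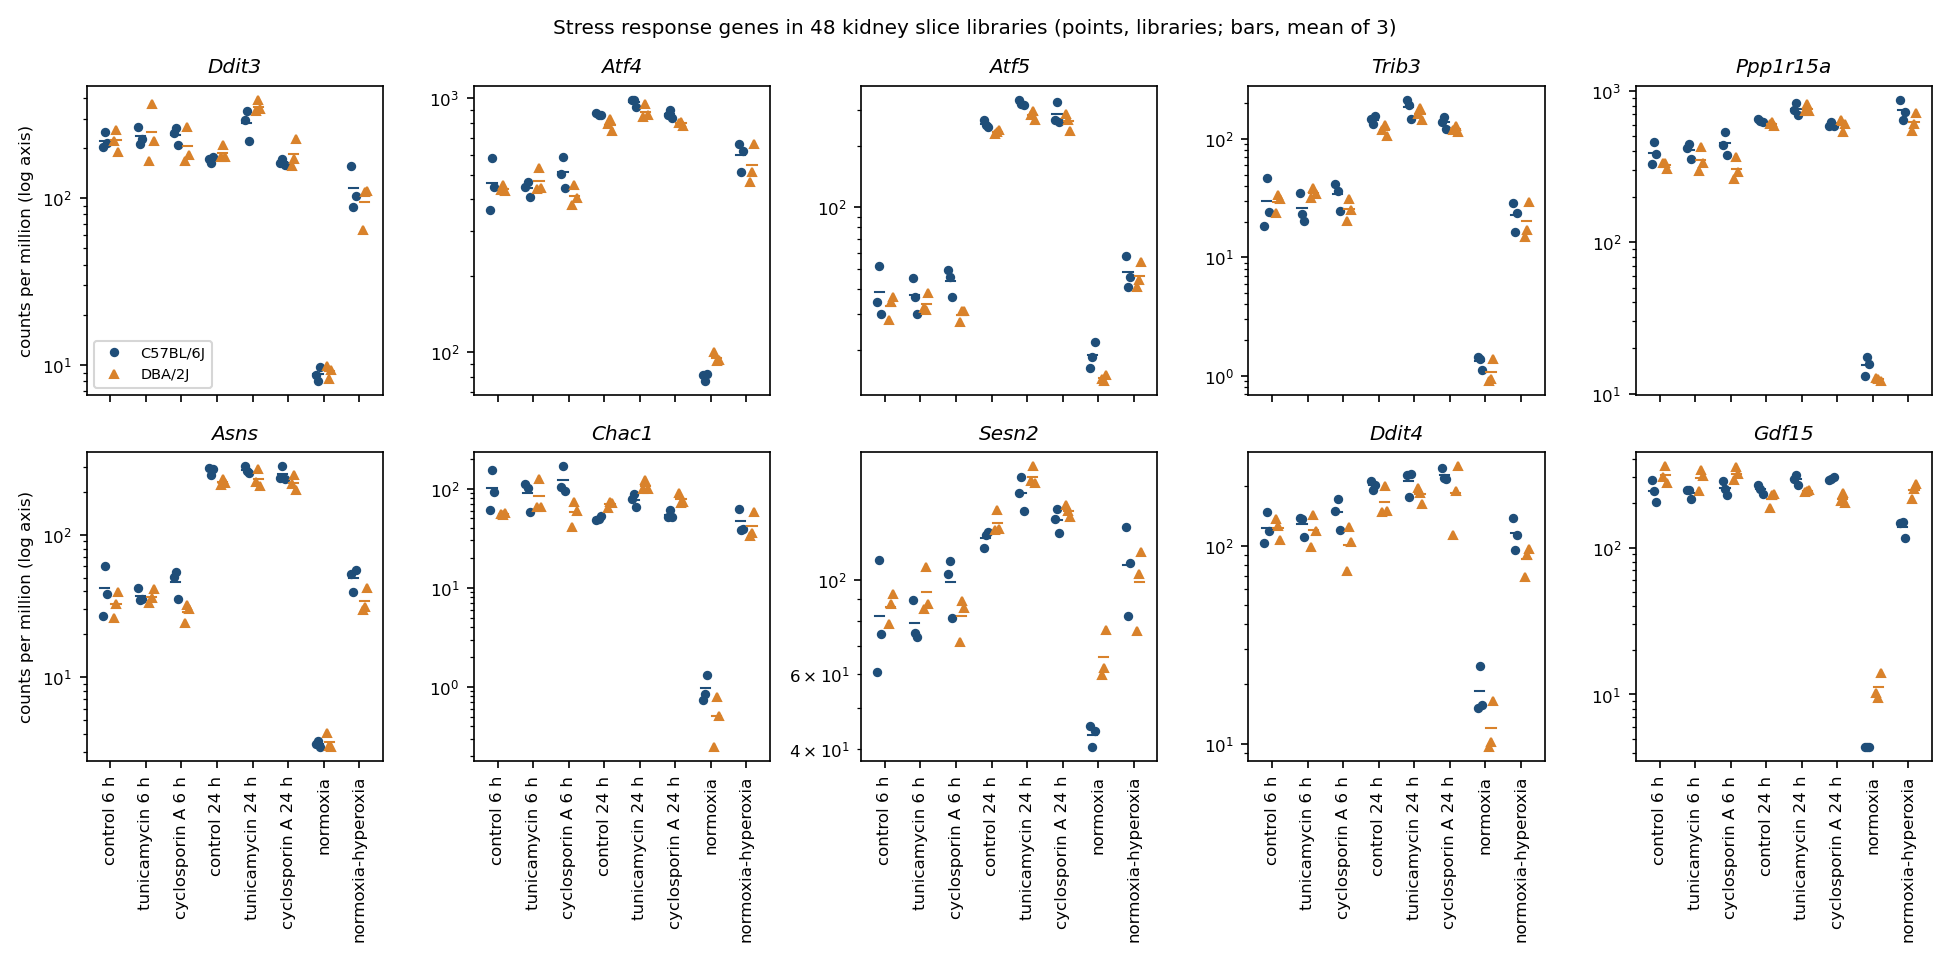
CPM on a log axis for the 10 genes in 48 libraries, by condition and strain; points are libraries and bars are means of 3. The means of all 10 genes were lowest in the normoxia groups, and Atf5, Trib3 and Asns stood higher in every 24 h drug or control library than in every 6 h library.

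All levels are given as CPM. Fold changes come from edgeR's quasi-likelihood test with TMM scaling, each averaged over both strains, and a change is called where the p-value adjusted over all genes tested was under 0.05. All 10 genes passed the filter on low counts in every comparison. On GRCm38, Atf4 lies at chr15:80255184-80257541, Atf5 at chr7:44812256-44816658 and Ppp1r15a at chr7:45522916-45526268. Trib3 lies at chr2:152337422-152344032, Chac1 at chr2:119351229-119354381 and Asns at chr6:7675169-7693254. Sesn2 lies at chr4:132492032-132510501, Ddit4 at chr10:59949669-59951834 and Gdf15 at chr8:70629393-70632456. Divided by exon length, mean levels in C57BL/6J 24 h controls ran from 30.7 CPM per kilobase for Chac1 and 36.01 for Sesn2 to 216 for Ppp1r15a and 368 for Atf4, with Ddit3 at 100.1.

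Tunicamycin raised part of this gene set at 24 h. Of the 10 genes, 6 were called higher and none lower, against 0.97% of the 16905 genes tested that were called higher. The members' median log2 change was 0.31, beside 0.01 for all genes tested, and all 10 estimates were above 0.

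Ddit3 (ENSMUSG00000025408, GRCm38 chr10:127290774-127296288, 4 merged exons) had the largest change. Its CPM in the 24 h C57BL/6J controls was 173, 163 and 178, and with tunicamycin 294, 333 and 219.5. In DBA/2J it was 177, 207 and 177 in controls and 333, 388 and 341 with the drug. No tunicamycin library of either strain overlapped its controls. The change was 1.77-fold (log2 0.82, SE 0.0877, edgeR adjusted p = 0.0017). Over 19 alternative fits its adjusted p-value stayed between 7.0e-14 and 0.0095.

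Chac1, which encodes an enzyme that degrades glutathione and is induced by ATF4, ATF3 and CHOP, rose 1.54-fold (log2 0.62, SE 0.0749, edgeR adjusted p = 0.0027). Its CPM went from 48.3, 49.4 and 53.0 to 78.2, 87.6 and 65.9 in C57BL/6J, and from 64.3, 73.6 and 71.7 to 98.3, 121 and 99.3 in DBA/2J. The groups did not overlap within either strain. Trib3, a pseudokinase that restrains ATF4 and CHOP, had CPM of 147, 133 and 156 in C57BL/6J controls and 214, 195 and 149 with the drug, so these groups overlapped. In DBA/2J its 119, 130.5 and 107 CPM became 163, 183 and 146, with no overlap. Its log2 change of 0.41 (SE 0.0875, edgeR adjusted p = 0.038) was lost in 9 of the 12 fits that left out 1 library, with adjusted p-values of up to 0.106.

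Sesn2, a stress-induced inhibitor of the growth kinase mTORC1, changed by log2 0.36 (SE 0.0531, edgeR adjusted p = 0.0061). Atf5, a transcription factor translated like ATF4 and tied to the mitochondrial stress response, changed by 0.31 (SE 0.0435, edgeR adjusted p = 0.0054). Ppp1r15a encodes GADD34, which brings a phosphatase to eIF2 and ends the response, and changed by 0.30 (SE 0.0534, edgeR adjusted p = 0.014). Atf5 had 269, 254 and 249 CPM in C57BL/6J controls and 336, 321 and 317 with the drug, and 229.6, 234 and 240.1 against 284, 298 and 267 in DBA/2J. Ppp1r15a had 649, 632 and 624 CPM against 749, 836 and 694 in C57BL/6J, and 603, 624 and 586 against 736, 819 and 739 in DBA/2J. For Sesn2, Atf5 and Ppp1r15a every tunicamycin library was above every control of its strain. The call of Ppp1r15a was lost without replicate 3 of the C57BL/6J controls (adjusted p = 0.051) or of the DBA/2J controls (0.052).

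The other 4 members did not pass. Atf4 itself had CPM of 874, 863 and 864 in C57BL/6J controls and 985, 984 and 925 with tunicamycin, and 792, 831 and 741 against 844, 948 and 859 in DBA/2J. These groups did not overlap, yet the log2 difference of 0.16 (SE 0.0498) had an edgeR adjusted p of 0.14. Gdf15, a secreted stress hormone that lowers appetite, differed by 0.20 (SE 0.0622, edgeR adjusted p = 0.15), and passed with no filter on low counts (0.049). The differences of Ddit4, which encodes the mTORC1 inhibitor REDD1, and of Asns, the enzyme that makes asparagine, were 0.10 (SE 0.0900) and 0.05 (SE 0.0662).

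By strain, Ddit3 and Chac1 were called in DBA/2J alone (log2 0.94 and 0.63), where 0.201% of genes were called higher, and no member or other gene was called in C57BL/6J alone (0.71 and 0.61). In DBA/2J DESeq2 called 6 members and the fit of all 48 libraries 1. A total of 1042 genes, 7 of them members, had an unadjusted p under 0.05 in C57BL/6J, and DESeq2 called 4 members there. No strain difference in the tunicamycin response was called for any member or any gene (0%) by edgeR. No member's difference had an unadjusted p under 0.05, as 338 of all genes did, and DESeq2 called no member. That for Ddit3 was 0.23 (SE 0.174) and that for Chac1 was 0.01 (SE 0.150). When all 48 libraries were fitted together, only Ddit3 of the 6 genes passed at 24 h, and the edgeR adjusted p-values of the other 5 were 0.12 to 0.33.

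**Figure D2:**
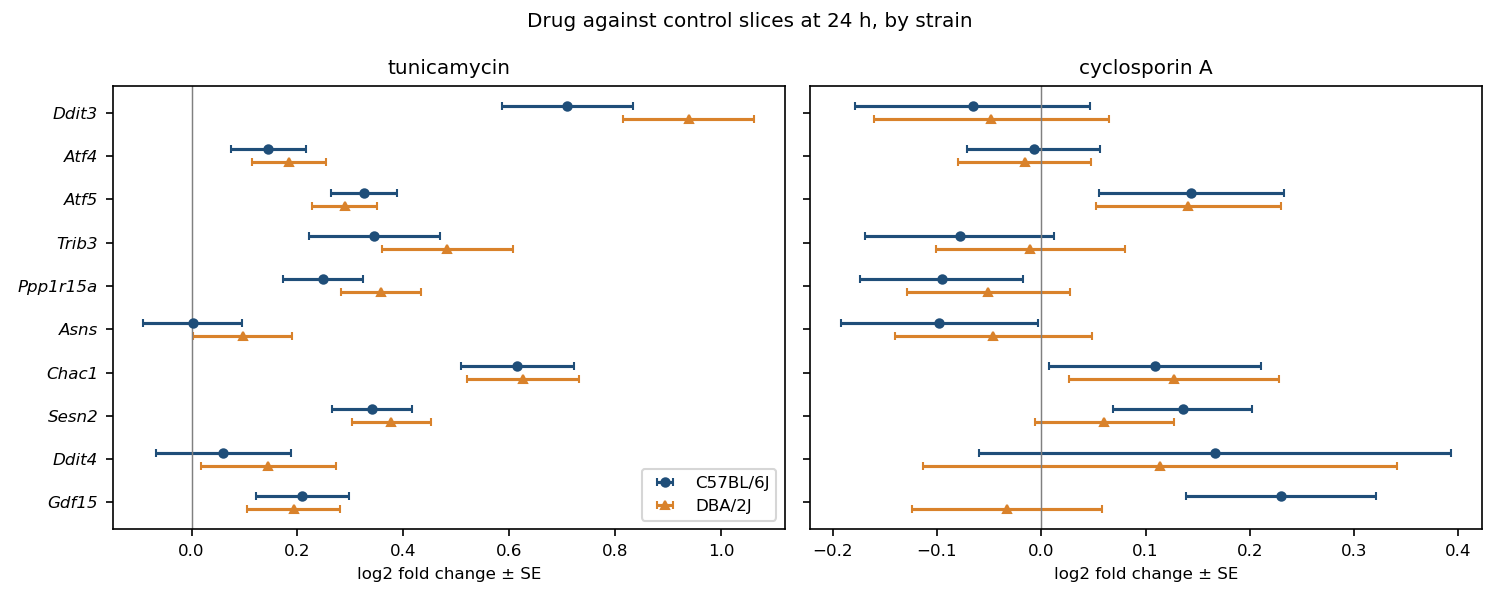
Log2 fold change and SE in each strain for tunicamycin (left) and cyclosporin A (right) against 24 h control slices. Tunicamycin changes of Ddit3 were 0.71 in C57BL/6J and 0.94 in DBA/2J, while the cyclosporin A values of all 10 genes lay between -0.10 and 0.23.

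At 6 h tunicamycin changed no member past the threshold, and no gene of the 16551 tested was called (0%). Ddit3 had CPM of 268, 212 and 227 in C57BL/6J with the drug against 203, 248 and 214 without it. In DBA/2J it had 168, 367 and 219 against 219.6, 258 and 189, and replicate 2 stood above the rest. Log2 differences ran from -0.06 for Gdf15 to 0.22 for Chac1 (SE 0.248), and the edgeR adjusted p-values were all 1.00. No member had an unadjusted p under 0.05, as 281 of all genes did, and DESeq2 called no member. The response of Ddit3 at 24 h exceeded that at 6 h by 0.69 (SE 0.217, edgeR adjusted p = 0.31), which did not pass. No member was called in that difference, in which 0.283% of genes were, and 3 members had an unadjusted p under 0.05, as did 1249 of all 18719 genes. DESeq2 called none. Without replicate 2 of DBA/2J tunicamycin at 6 h, the Ddit3 difference was 0.89 and passed (edgeR adjusted p = 0.028).

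With cyclosporin A no member and no gene (0%) was called by edgeR at either time. At 24 h the members' log2 differences lay between -0.07 for Ppp1r15a and Asns and 0.14 for Ddit4 and Atf5, with SE of 0.0451 to 0.160 and edgeR adjusted p-values of 0.74 or above. Only 1 of the 10 genes had an unadjusted p under 0.05, as did 1107 of all 16887 genes, and DESeq2 called no member. Ddit3 had 162, 173 and 159 CPM in C57BL/6J and 157, 171 and 228 in DBA/2J with the drug, within or close to the control range. At 6 h the differences lay between 0.01 and 0.19, no member had an unadjusted p under 0.05 (734 of all genes did), and DESeq2 called none. The response at 24 h minus that at 6 h was between -0.18 and 0.11 for the members, with no member or gene called (0%), no member at an unadjusted p under 0.05 where 1012 genes were, and none called by DESeq2. Set directly against cyclosporin A at 24 h, tunicamycin slices had more Ddit3 (log2 0.89, SE 0.154, edgeR adjusted p = 0.00041) and more Ppp1r15a (0.38, SE 0.101, edgeR adjusted p = 0.028), against 1.47% of genes called higher. Ppp1r15a lost that call in 7 fits without 1 library, with adjusted p-values of up to 0.106, and with no filter on low counts (0.061). For the other 8 members the differences ran from -0.03 to 0.51 and did not pass. With library totals alone the share of increases among all calls went from 67.0% to 51.0%, and both members kept their calls.

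**Figure D3:**
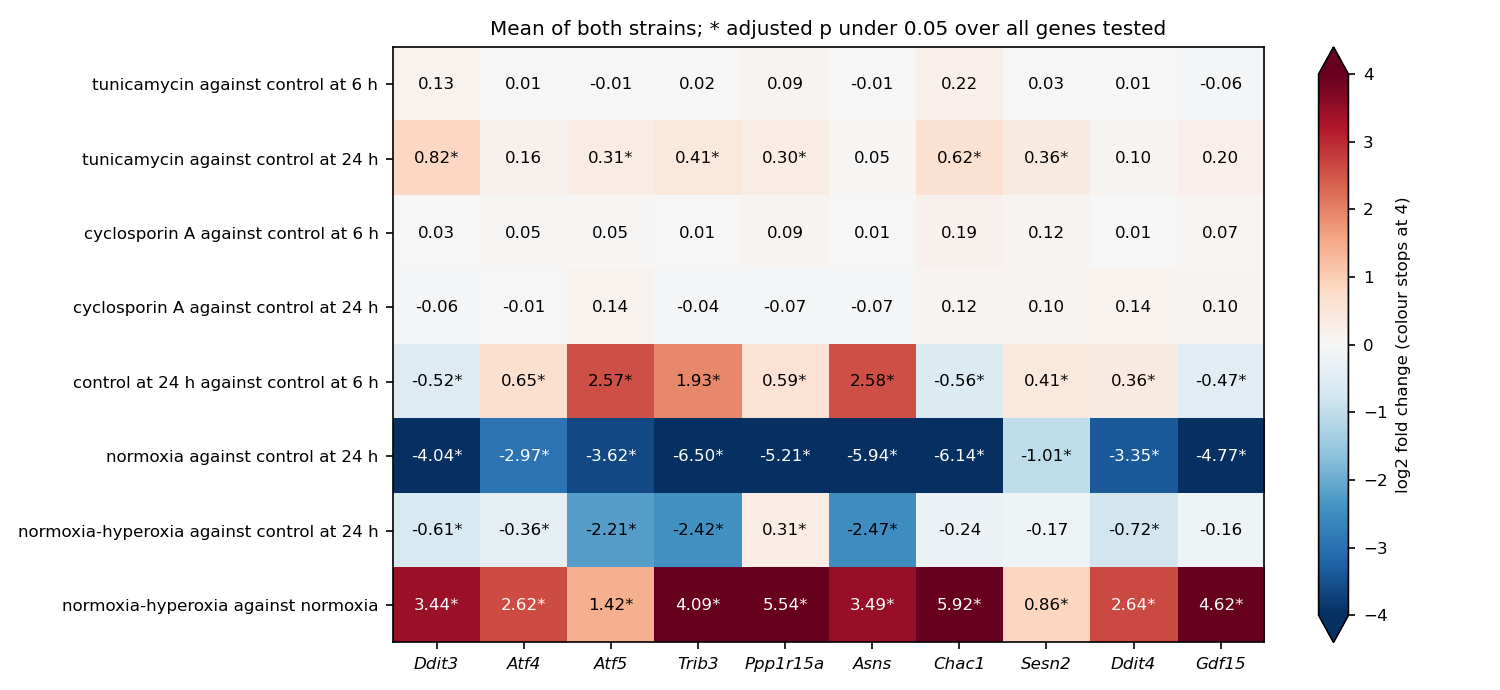
Log2 fold change of each gene in 8 comparisons, averaged over both strains; an asterisk marks an edgeR adjusted p under 0.05. The drug comparisons hold 6 calls in all, with none above 0.82, while 24 h against 6 h controls and normoxia each hold 10.

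Time in culture moved all 10 genes without any drug, and in both directions. Between 6 h and 24 h controls, 7 members rose and 3 fell, where 34.7% of all genes were called higher and 37.4% lower. The largest increases were in Asns, Atf5 and Trib3. Asns had CPM of 26.8, 60.6 and 38.5 at 6 h and 297, 262 and 291 at 24 h in C57BL/6J, and 25.9, 32.7 and 39.9 against 224, 248 and 233 in DBA/2J. Its rise was 5.98-fold (log2 2.58, SE 0.180, edgeR adjusted p = 1.1e-07). Atf5 rose 5.94-fold (log2 2.57, SE 0.124, edgeR adjusted p = 9.5e-10), from 27.996 to 51.7 CPM at 6 h to 229.6 to 269 CPM at 24 h. Trib3 rose 3.81-fold, from 18.4 to 47.005 CPM to 107 to 156 CPM. In none of the 3 genes did a 6 h library reach a 24 h one.

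Atf4 rose less, by log2 0.65 (SE 0.0975, edgeR adjusted p = 2.6e-05). Its CPM was 363, 582 and 449 in C57BL/6J and 436, 454 and 432 in DBA/2J at 6 h, and 741 to 874 in the 6 controls at 24 h. Ppp1r15a rose by 0.59, Sesn2 by 0.41 and Ddit4 by 0.36. In the C57BL/6J 6 h controls, replicate 2 was the highest of 3 for all members but Gdf15, for example 154 CPM of Chac1 against 60.8 and 92.9. All 10 calls held without that library.

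Ddit3, Chac1 and Gdf15 went the other way. Ddit3 fell by 0.52 (SE 0.0825, edgeR adjusted p = 4.3e-05), from 189 to 258 CPM to 163 to 207 CPM, so the ranges overlapped before scaling. Gdf15 fell by 0.47 (SE 0.0940), with -0.24 (SE 0.133, edgeR adjusted p = 0.13) in C57BL/6J and -0.69 (SE 0.133, edgeR adjusted p = 0.00041) in DBA/2J, a strain difference of -0.45 (SE 0.188, edgeR adjusted p = 0.31). Chac1 fell by 0.56 (SE 0.177), and by 0.35 without replicate 2 of the C57BL/6J 6 h controls. Its change was -1.31 in C57BL/6J and 0.19 in DBA/2J. That strain difference of 1.499 (SE 0.354) had an edgeR adjusted p of 0.10. No member's strain difference was called by edgeR, where 0.69% of genes were, 2 had an unadjusted p under 0.05, and DESeq2 called 1. With scaling to library totals alone the median of all genes shifted from -0.02 to 0.19, and the share of calls that were increases went from 48.1% to 60.4%. Ddit3 and Gdf15 kept their calls at -0.31 and -0.25 under that scaling, and Chac1 did not (-0.34, edgeR adjusted p = 0.095). Sesn2 and Ddit4 were higher by 0.63 and 0.57.

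Normoxia held the lowest levels of every member. All 10 genes were called lower than in 24 h controls, where 39.7% of genes were called lower, and the members' median log2 change was -4.40 beside 0.05 for all genes. Ddit3 had CPM of 8.75, 8.02 and 9.69 in C57BL/6J and 9.87, 8.29 and 9.29 in DBA/2J, and was 16.5-fold lower than in 24 h controls (log2 -4.04, SE 0.0726, edgeR adjusted p = 2.9e-16). Trib3 was 90.4-fold lower at 0.901 to 1.44 CPM, Chac1 was 70.7-fold lower at 0.246 to 1.33 CPM and Asns was 61.5-fold lower at 3.21 to 4.05 CPM. The Chac1 values rest on 6 to 26 counts a library. Atf4 stood at 77.1 to 100.1 CPM (log2 -2.97) and Sesn2, the least changed, at 40.5 to 76.3 CPM (log2 -1.01, SE 0.0632). No normoxia library reached a 24 h control for any of the 10 genes. Against 6 h controls, in the fit of all 48 libraries, all 10 were again lower (30.3% of genes were), from -0.62 for Sesn2 to -6.72 for Chac1. By strain, all 10 were called lower in C57BL/6J, where 4606 of 18719 genes were. In DBA/2J 9 were, where 4797 genes were, and the smallest change was -0.27 (edgeR adjusted p = 0.16).

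The oxygen arms and the drug experiment are separate in the titles, so what differs between these experiments and the effect of oxygen cannot be told apart in either comparison. The same 24 h control libraries also enter the drug comparisons at 24 h, the one with 6 h controls and that of normoxia-hyperoxia, so these are not independent of each other. Scaling to library totals shifted the median of all genes from 0.05 to -0.22 and the share of increases from 51.6% to 41.5%, and all 10 members stayed lower.

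**Figure D4:**
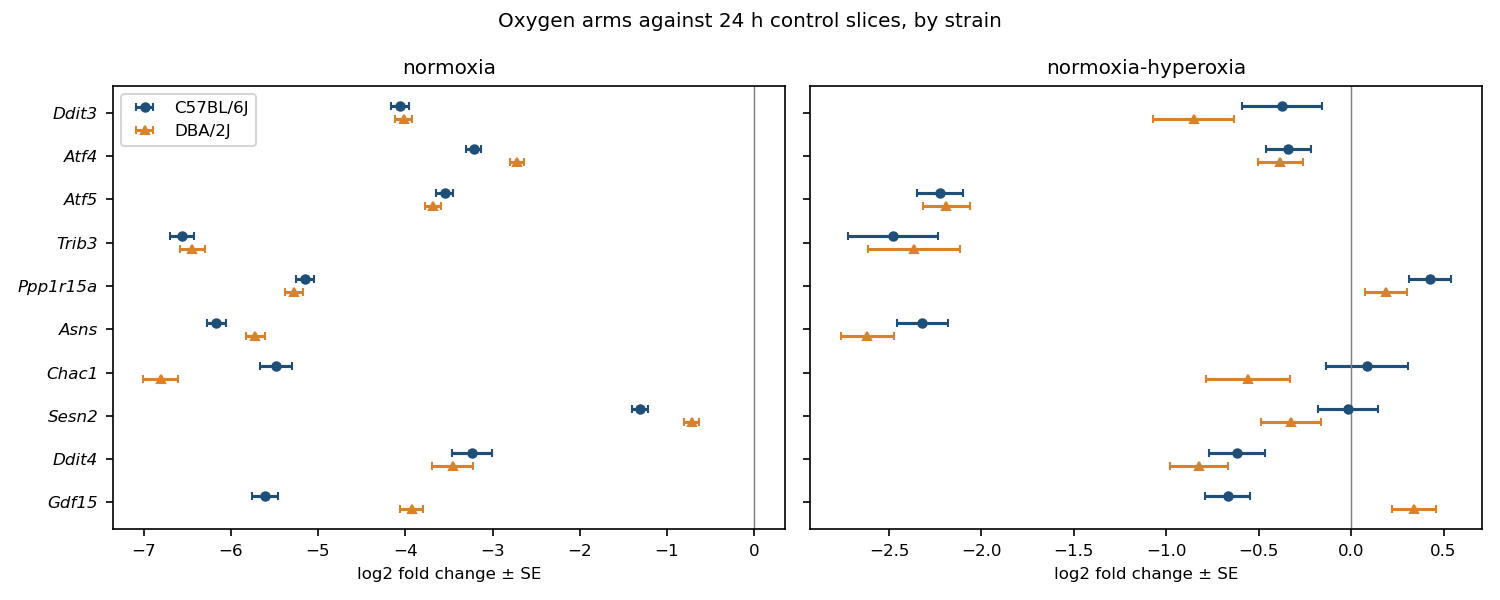
Log2 fold change and SE in each strain for normoxia (left) and normoxia-hyperoxia (right) against 24 h control slices. Gdf15 is the member whose strains lie on opposite sides of 0 under normoxia-hyperoxia with both called, at -0.67 in C57BL/6J and 0.34 in DBA/2J.

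Slices moved from normoxia to hyperoxia had more RNA of all 10 genes than slices kept under normoxia, with 37% of genes called higher. In DBA/2J alone edgeR called 9 higher, where 5815 of 17228 genes were, and DESeq2 called 10. The smallest DBA/2J estimate was 0.40 (edgeR adjusted p = 0.056). Averaged over both strains, the increases ran from log2 0.86 (SE 0.124) for Sesn2 to 5.92 (SE 0.270) for Chac1. Ddit3 was 155, 88.5 and 103 CPM in C57BL/6J and 64.3, 109 and 110.4 CPM in DBA/2J, 10.9-fold above normoxia. Replicate 2 of the DBA/2J normoxia-hyperoxia group, the smallest library, held 109 CPM and was not the low one.

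Set against 24 h controls, the normoxia-hyperoxia arm split the members. Ppp1r15a was higher (log2 0.31, SE 0.0812, edgeR adjusted p = 0.0035), where 34.1% of genes were called higher, at 546 to 871 CPM against 586 to 649 CPM, ranges that overlapped. By strain its difference was 0.43 (SE 0.115, edgeR adjusted p = 0.0052) in C57BL/6J and 0.19 (SE 0.115, edgeR adjusted p = 0.18) in DBA/2J. Lower were 6 members, where 34.1% of genes were called lower. Asns (-2.47, SE 0.0998), Trib3 (-2.42, SE 0.173) and Atf5 (-2.21, SE 0.0883) fell furthest. Asns had 53.2, 39.5 and 56.7 CPM in C57BL/6J and 29.5, 31.1 and 42.1 CPM in DBA/2J, all below the lowest 24 h control of 224 CPM. Ddit4 changed by -0.72, Ddit3 by -0.61 and Atf4 by -0.36. Atf4 had 661, 514 and 623 CPM in C57BL/6J and 468, 511 and 659 CPM in DBA/2J, below every control of the same strain. Chac1 had 62.5, 38.4 and 38.7 CPM in C57BL/6J and 32.9, 35.8 and 58.4 CPM in DBA/2J, so replicate 1 of C57BL/6J and replicate 3 of DBA/2J stood above the rest of their groups. The differences of Chac1 (-0.24), Sesn2 (-0.17) and Gdf15 (-0.16) did not pass with all libraries. Without replicate 1 of C57BL/6J normoxia-hyperoxia, Chac1 (-0.38, edgeR adjusted p = 0.022) and Sesn2 (-0.26, 0.031) did pass. Without replicate 3 of DBA/2J normoxia-hyperoxia, Chac1 (-0.40, edgeR adjusted p = 0.013) and Gdf15 (-0.21, 0.0499) passed, and without replicate 1 of the DBA/2J controls Gdf15 did (-0.22, 0.032). Chac1 also passed with no filter on low counts (edgeR adjusted p = 0.0099) and Gdf15 with the replicate number as a block (-0.17, 0.020). With library totals alone, which moved the median of all genes from 0.00 to -0.17 and the share of increases from 49.96% to 39.01%, the difference of Ppp1r15a was 0.14 (edgeR adjusted p = 0.14), and Chac1, Sesn2 and Gdf15 were called lower at -0.41, -0.34 and -0.33.

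Gdf15 differed by strain in both oxygen arms. In 24 h controls it had 267, 249 and 233 CPM in C57BL/6J and 187, 228 and 229.6 CPM in DBA/2J. Under normoxia it had 4.37, 4.41 and 4.39 CPM in C57BL/6J and 10.2, 9.43 and 14.05 CPM in DBA/2J, with no overlap. Under normoxia-hyperoxia it had 146, 149.8 and 116 CPM in C57BL/6J, all below the controls, and 215, 251 and 272 CPM in DBA/2J, which overlapped them. The change under normoxia-hyperoxia was -0.67 (SE 0.121) in C57BL/6J and 0.34 (SE 0.121) in DBA/2J. That strain difference of 1.01 (SE 0.171, edgeR adjusted p = 0.0097) was the only one called among the members, where 1.43% of genes were called. Under normoxia the change was -5.61 (SE 0.147) and -3.92 (SE 0.131). Strain differences there were called for Gdf15, Chac1, Sesn2 and Atf4, where 17% of genes were called, and only that of Gdf15 held in the fit of all 48 libraries. Against 6 h controls, 1 member's strain difference was called for normoxia (edgeR adjusted p = 0.00074). Of 18719 genes, 382 were called higher and 221 lower in that test. For normoxia-hyperoxia against 6 h controls no member was called (lowest edgeR adjusted p = 0.19), where 64 genes were called higher and 36 lower.

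Against 6 h controls, the normoxia-hyperoxia arm had more Ppp1r15a (0.92, SE 0.102), Atf5 (0.39, SE 0.111) and Atf4 (0.32, SE 0.0889), with 22.8% of genes called higher. It had less Ddit3 (-1.11, SE 0.156), Chac1 (-0.77, SE 0.210), Gdf15 (-0.60, SE 0.0942) and Trib3 (-0.47, SE 0.188), with 21.9% called lower. The Trib3 difference was -0.21 (edgeR adjusted p = 0.32) without replicate 2 of the C57BL/6J 6 h controls, and it lost its call in 6 other fits without 1 library. Its call held in 46 of 54 alternatives, and the losses included a fit that kept every library. Asns, at 29.5 to 56.7 CPM beside 25.9 to 60.6 CPM in 6 h controls, differed by 0.14 (SE 0.140) and did not pass. Without replicate 2 of the C57BL/6J 6 h controls it did (0.33, edgeR adjusted p = 0.032). Sesn2 (0.27, SE 0.115, edgeR adjusted p = 0.056) and Ddit4 (-0.33, SE 0.158, 0.084) did not pass either. Sesn2 passed with RLE factors (0.047), library totals (0.033), the replicate block (0.044) and DESeq2 (0.043), and without that same 6 h library it was 0.42 (edgeR adjusted p = 0.0012). Ddit4 passed in 8 fits without 1 library (edgeR adjusted p of 0.031 to 0.0498). By strain, 1 member was called higher and 3 lower in C57BL/6J, where 2070 and 2509 of 18719 genes were. In DBA/2J 3 were called higher and 1 lower, where 3544 and 3167 genes were. All values of this paragraph come from the fit of all 48 libraries.

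The order of the 16 groups was much alike at its lower end. The 2 normoxia groups were the lowest for each of the 10 genes. At the upper end, the DBA/2J tunicamycin slices at 24 h had the highest mean of Ddit3 (354 ± 29.8 CPM, SD, n = 3), followed by the C57BL/6J ones (282 ± 57.6 CPM), whose range of 219.5 to 333 touched that of DBA/2J, 333 to 388. Asns, Atf5 and Trib3 were highest in the 6 groups of control and drug slices at 24 h. Gdf15 had its highest means in DBA/2J slices at 6 h, at 319 ± 34.3 CPM with cyclosporin A and 312 ± 41.7 CPM in controls, and these groups overlapped.

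Across the 16 group means of log2 CPM, Pearson's r between members ran from 0.45 (Atf5 and Gdf15) to 0.98 (Ddit3 and Chac1, and Trib3 and Asns). These r values share libraries and depth, and the low normoxia groups enter all of them. Leaving out the members and predicted or unnamed genes, of 12990 genes compared in this way those most like Ddit3 were Nrg1 (r = 0.979), Bhlhe41 (0.978) and Lonrf3 (0.976). For Atf4 they were Ppp1r13l (0.994), Hmox1 (0.993) and Sprr2f (0.993), and for Gdf15 they were Adamts1 (0.985), Ccn1 (0.974) and Lonrf3 (0.974).

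Averaged over the 8 conditions, strain differences were small. Gdf15 was higher in DBA/2J by 0.19 (SE 0.0481, edgeR adjusted p = 0.00057), where 33% of genes were called higher. That average joins opposite directions. With DBA/2J first, its mean CPM was 312 against 244 in 6 h controls and 246 against 137 under normoxia-hyperoxia, but 215 against 250 in 24 h controls, 242 against 291 with tunicamycin and 215 against 294 with cyclosporin A at 24 h, the last 3 with no overlap. Lower were 6 members, where 31% of genes were: Ddit4 (-0.40), Asns (-0.36), Atf5 (-0.31), Ppp1r15a (-0.30), Chac1 (-0.30) and Atf4 (-0.16). Chac1 too joined opposite directions: in 6 h controls it had 53.6 to 56.2 CPM in DBA/2J against 60.8 to 154 in C57BL/6J, but in 24 h controls 64.3 to 73.6 against 48.3 to 53.05, with tunicamycin at 24 h 98.3 to 121 against 65.9 to 87.6 and with cyclosporin A 70.9 to 89.2 against 51.4 to 60.6. The call of Chac1 (edgeR adjusted p = 0.044) was lost in 32 of the 48 fits that each left out 1 library, with RLE factors (0.055) and with no filter (0.12). The Atf4 average joins both directions as well. With DBA/2J first, Atf4 had 741 to 831 against 863 to 874 CPM in 24 h controls, but 92.5 to 100.1 against 77.1 to 82.1 under normoxia. Sesn2 (0.02, edgeR adjusted p = 0.82) did not pass, though under normoxia it had 59.7 to 76.3 against 40.5 to 45.3 CPM. Trib3 (-0.23, SE 0.103, edgeR adjusted p = 0.053) did not pass, but did with DESeq2 (0.037), with the replicate block (0.0497) and in 9 fits without 1 library. With library totals alone the share of increases among all calls went from 51.6% to 65.4%, Atf4 (-0.07, edgeR adjusted p = 0.14) and Chac1 (-0.21, 0.15) lost their calls, and the estimate of Ddit3 turned from -0.06 to 0.03 without passing in either.

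Other genes of the pathway, 56 in a list of 6 roles, showed whether the members moved alone. The list was set up with earlier results of these data known. Its genes were read from the reported fits only, so whether their calls hold under the alternatives was not examined. With tunicamycin at 24 h, 5 of 56 rose and none fell, where 0.97% of all genes rose, the list's median was 0.08 beside 0.01, and 20 had an unadjusted p under 0.05, as did 2174 of all 16905 genes. Herpud1, a component of endoplasmic reticulum degradation, rose by log2 0.94 (SE 0.0987, edgeR adjusted p = 0.0017), a larger estimate than that of any member. It lay between 231 and 269 CPM in 24 h controls and between 331 and 554 CPM with the drug. Pycr1 and Psph, of proline and serine synthesis, rose by 0.63 (SE 0.133, edgeR adjusted p = 0.035) and 0.35 (SE 0.0796, edgeR adjusted p = 0.048). The amino acid transporter subunits Slc3a2 and Slc7a5 rose by 0.29 and 0.22. Of the 11 genes of the eIF2 kinases and their machinery none passed in edgeR and 3 had an unadjusted p under 0.05, and Eif2ak3, which encodes PERK, differed by 0.24 (SE 0.0678, edgeR adjusted p = 0.12). At 6 h, and with cyclosporin A at either time, none of the list passed in edgeR, with 1, 0 and 4 of its genes at an unadjusted p under 0.05 for tunicamycin at 6 h and for cyclosporin A at 6 h and 24 h. Of all genes, 281 of 16551, 734 of 16538 and 1107 of 16887 were at that level.

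With time in culture, 44 of the 55 pathway genes tested rose and 5 fell, where 34.7% of all genes rose and 37.4% fell, with a median log2 change of 0.96 beside -0.02 for all genes. All 12 aminoacyl-tRNA synthetases, which load amino acids onto transfer RNA, rose, by 0.77 to 1.55. Of 9 genes of serine, one-carbon and proline synthesis 7 rose, led by Pycr1 (4.31, SE 0.227) and Aldh1l2 (3.47, SE 0.100). Slc7a11, the cystine importer, rose by 4.50 (SE 0.342), from 18 to 120 counts a library at 6 h to 1196 to 2494 at 24 h. Atf3, a partner of CHOP and an early stress factor, fell by 1.76 (SE 0.124).

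**Figure D5:**
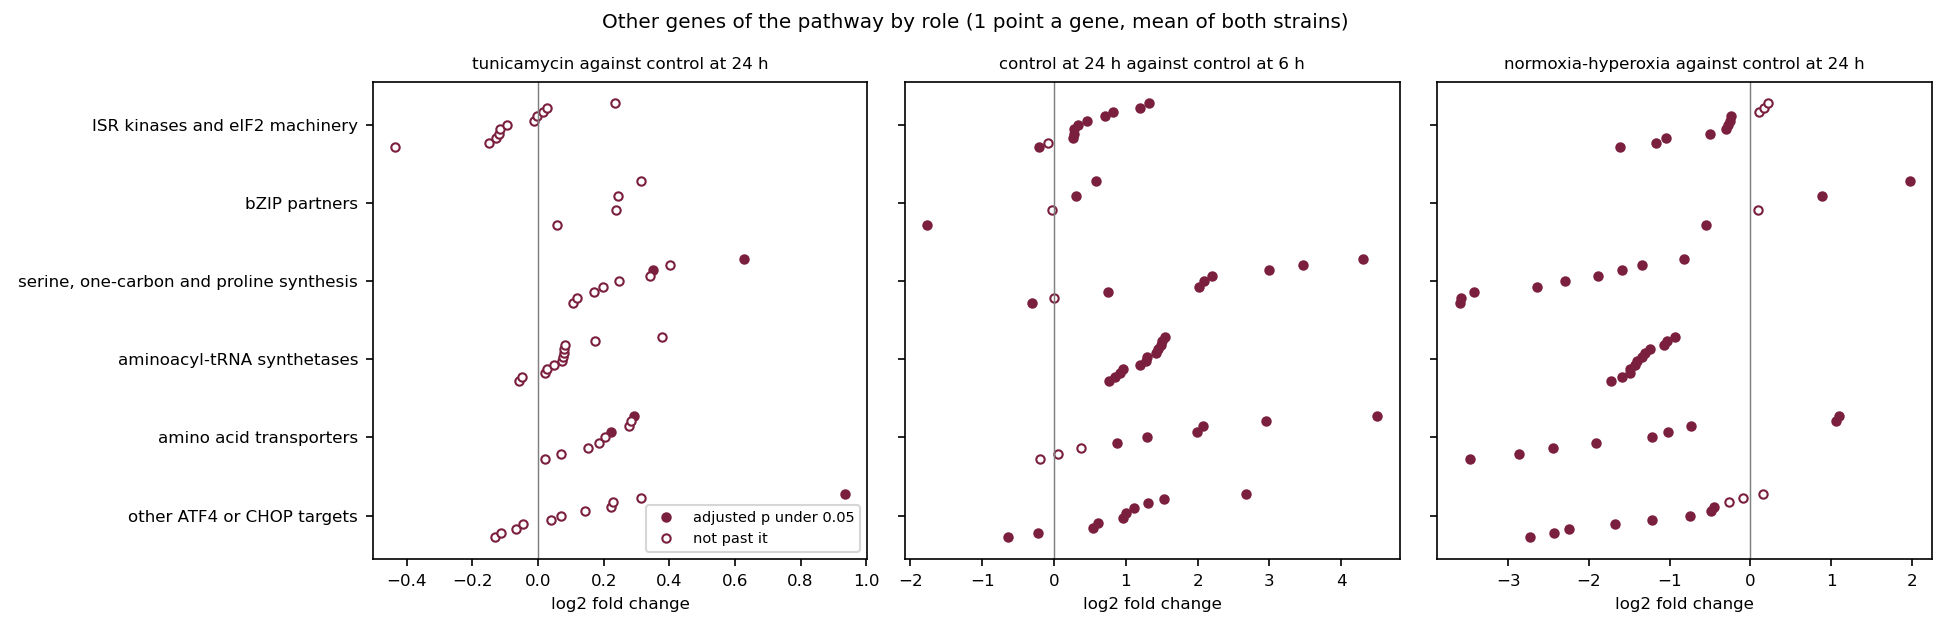
Log2 fold change of 56 further pathway genes by role in 3 comparisons (1 point a gene; filled points have an edgeR adjusted p under 0.05). All 12 aminoacyl-tRNA synthetases were higher at 24 h than at 6 h in controls and all 12 were lower in normoxia-hyperoxia slices than in those 24 h controls.

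Under normoxia 51 of the 55 tested were lower than in 24 h controls and 3 higher, where 39.7% of all genes were lower and 42.4% higher, with a median of -1.78 beside 0.05. Atf3 fell by 7.41 (SE 0.139), to 24 to 57 counts a library, and Slc7a11 held 1 to 6 counts a library, too few for a fold change to be read. Cth, Shmt2 and Eif2ak1 were the 3 that rose, by 0.90, 0.76 and 0.69. Under normoxia-hyperoxia 45 of 56 were lower than in 24 h controls and 4 higher, where 34.1% of all genes were lower and 34.1% higher. The list's median was -1.19 beside 0.00. All 9 genes of serine, one-carbon and proline synthesis and all 12 synthetases were among those lower. Atf3 (1.97, SE 0.141), Slc1a5 (1.10, SE 0.0886) and Slc38a2 (1.06, SE 0.0908) led those higher. Relative to normoxia, 40 of 55 were higher and 10 lower, where 37% of all genes were higher and 36.5% lower. The median was 0.71 beside 0.02, and Shmt2 (-2.34, SE 0.0978) fell furthest.

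Several counts could hold reads of neighbours. The second table entry of Ddit3 (ENSMUSG00000116429) covers 105 exonic bases that lie wholly inside the main entry on the same strand, and how reads there were divided is not given in the sources used here. It held 8.17% to 13.6% of the reads of both entries by group mean. Its own change with tunicamycin at 24 h was 0.82 (SE 0.114, edgeR adjusted p = 0.0054). Adding both entries, a step chosen after seeing the data, changed no count of called members. The exons of Ddit3 also overlap those of Mars on the opposite strand by 68 bases, those of Atf5 overlap Nup62 and Il4i1 by 82 bases, and those of Ppp1r15a overlap Tulp2 by 12 bases. The library kit keeps strand, but the strand setting of the counting is not given in the sources used here.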

How the data were processed

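The deposited file is 1 table of raw gene counts for 55487 Ensembl genes and 48 libraries, which the authors made from stranded, ligation-based mRNA libraries, per the labels' protocols. The submitters' processing notes name bcl2fastq 2.20.0, FastQC 0.11.8, STAR 2.7.9a, featureCounts 1.5.1 and build GRCm38. The annotation release and the strand setting are not given in the sources used here. Of the identifiers, 55141 had a symbol.

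CPM are counts per 1000000 of the library total, without TMM factors. Fold changes, SEs and p-values came from edgeR 4.0.16 (limma 3.58.1, R 4.3.3): TMM factors, filterByExpr, robust quasi-likelihood fits and Benjamini-Hochberg adjustment over all genes, with a threshold of 0.05. Each of 8 comparisons was fitted on its own 12 libraries, as a mean over strains, a strain difference (DBA/2J minus C57BL/6J) and each strain alone. Another 6 contrasts came from 1 fit of all 48 libraries. The scripts were tested on simulated data. The alternatives were RLE factors, library totals alone, no filter, DESeq2 1.42.0, a replicate block, a fit of all libraries and leaving out each library. Replicate numbers carried no stated pairing.

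The text names all 10 members, the pathway genes by their largest changes among those called (3 in each direction at most, mean log2 CPM of at least 1; other pathway genes were picked after their values were seen) and the 3 genes most like Ddit3, Atf4 and Gdf15 in pattern. Members and lists were chosen with earlier results of these data known.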

Additional observations from a re-analysis of the deposited data

Results flagged for a closer look

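Whether a member's response differed between the strains was tested on the difference itself (edgeR interaction, DBA/2J minus C57BL/6J, log2). In the comparisons fitted on their own 12 libraries, 9 cases were called. For normoxia against 24 h controls these were Gdf15 (1.69, SE 0.186, adjusted p = 7.6e-05), Sesn2 (0.60, SE 0.125, adjusted p = 0.0052), Atf4 (0.50, SE 0.111, adjusted p = 0.0075) and Chac1 (-1.32, SE 0.339, adjusted p = 0.016), where 17% of all genes were called. The first 3 genes fell less in DBA/2J and Chac1 fell more. Chac1 rests on 6 to 15 counts a library in DBA/2J under normoxia. Its adjusted p was 0.067 without replicate 3 of C57BL/6J normoxia and 0.051 without replicate 1 of DBA/2J normoxia. The call of Atf4 was lost without replicate 3 of the 24 h controls of either strain. In the fit of all 48 libraries Gdf15 kept its call, and Sesn2 (adjusted p = 0.15), Atf4 (0.13) and Chac1 (0.25) did not. That fit also called 1 member's strain difference for normoxia against 6 h controls (edgeR adjusted p = 0.00074), which is not among the 9 cases.

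For normoxia-hyperoxia against 24 h controls the strains differed in Gdf15 (1.01, SE 0.171, adjusted p = 0.0097), where 1.43% of all genes were called. For normoxia-hyperoxia against normoxia the increases were smaller in DBA/2J for Sesn2 (-0.91, SE 0.246, adjusted p = 0.025), Gdf15 (-0.69, SE 0.214, adjusted p = 0.039), Atf4 (-0.55, SE 0.174, adjusted p = 0.041) and Asns (-0.76, SE 0.243, adjusted p = 0.043), where 18.2% of all genes were called. None of these 4 was called when scaling used library totals alone, and Asns and Atf4 were not called with RLE factors. Leaving out 1 library ended the call of Asns in 9 of 12 fits, of Gdf15 in 9, of Atf4 in 10 and of Sesn2 in 5. In the fit of all 48 libraries the adjusted p-values of Asns, Gdf15 and Atf4 were 0.19, 0.051 and 0.086, and Sesn2 kept its call. The 3 comparisons share the 24 h control or the normoxia libraries, so their strain differences are not independent of each other.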

How the results depend on the processing

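Counts of called members stayed within 1.5 times the reported count under 599 alternatives, were higher under 6 and lower under 23. Under the alternatives, fold changes kept their direction and side of the threshold 3431 times, gained a call 39 times, lost it 119 times and changed sign 22 times. This tally of fold changes left out strain differences that had not passed. For tunicamycin at 6 h, cyclosporin A at either time and both 24 h minus 6 h contrasts, it held only the members with the lowest and highest estimates. Changes of sign among the estimates left out were not counted. The exceptions among counts follow. In the fit of all 48 libraries, 1 member was called for tunicamycin at 24 h, where 6 were reported, and 1 strain difference each for normoxia against 24 h controls and for normoxia-hyperoxia against normoxia, where 4 were reported. For the latter, RLE factors gave 2, library totals gave 0 and leaving out 1 library gave 0 to 4. Strain differences in the change with time were 0 as reported, 2 with no filter, 1 with DESeq2 and 0 to 1 leaving out 1 library. Those for normoxia-hyperoxia against 24 h controls were 1 as reported and 3 with no filter. Tunicamycin against cyclosporin A gave 2, 1 with no filter and 1 to 2 leaving out 1 library. The response to tunicamycin at 24 h minus that at 6 h gave 0, and 0 to 1 leaving out 1 library, when Ddit3 passed without replicate 2 of DBA/2J tunicamycin at 6 h.

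Of the fold changes in that tally, only estimates that had not passed the threshold turned their sign. Leaving out 1 library, Asns ranged from -0.0188 to 0.0815 for tunicamycin at 24 h, from -0.11 to 0.21 for cyclosporin A at 6 h and from -0.14 to 0.18 for tunicamycin at 24 h minus 6 h. Gdf15 ranged from -0.12 to 0.0024 for tunicamycin at 6 h. Ddit4 ranged from -0.0224 to 0.23 for cyclosporin A at 24 h minus 6 h and from -0.15 to 0.11 for tunicamycin against cyclosporin A. Sesn2 ranged from -0.0064 to 0.0544 between strains. With library totals alone, Asns was -0.0139 for cyclosporin A at 6 h and Ddit3 was 0.0321 between strains. The causes were not tested.

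The replicate block left 6 members called for tunicamycin at 24 h and 10 for time. It gave 8 in place of 7 for normoxia-hyperoxia against 24 h controls (with Gdf15) and against 6 h controls (with Sesn2) and for strain (with Trib3). Same-numbered libraries deviated together in some pairs but not in all (tunicamycin at 24 h, 0.16 to 0.38 in 5 pairs and -0.24 in 1), so the numbers were not taken as pairs. With 3 libraries a group and no doses stated, absence of a call at 6 h or for cyclosporin A does not show absence of a response.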
